A study of Mus musculus with 36 samples.

Results

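The 86 genes described here carry the symbols of subunits of the mitochondrial respiratory chain and of ATP synthase. They were chosen by name from the 20817 genes of the expression table: symbols that begin with NDUFA, NDUFB, NDUFC, NDUFS, NDUFV, UQCR, COX4I, COX5, COX6, COX7, COX8 or ATP5, together with SDHA, SDHB, SDHC, SDHD and CYC1. The assembly factors whose symbols begin with NDUFAF were left out, and no measured value was used in the choice. By name, 38 genes belong to complex I, 4 to complex II, 9 to complex III, 18 to complex IV and 17 to complex V. Of those named for complex V, ATP5SL and ATP5S are not known as parts of ATP synthase. NDUFA4, counted with complex I, is known to sit in cytochrome c oxidase, which is complex IV. Naive CD4+ T cells without CD44 or CD25 and with CD62L were sorted from the spleens of 3 wild-type C57BL/6 mice, and all groups were activated on plate-bound antibodies to CD3 and CD28, each at 1 µg/ml. Cells of each animal were grown toward pathogenic Th17 cells (Th17p) with IL-6 at 25 ng/ml, IL-1b at 20 ng/ml and IL-23 at 20 ng/ml. They were also grown toward non-pathogenic Th17 cells (Th17n) with IL-6 at 25 ng/ml and TGFb1 at 2 ng/ml, and toward induced regulatory T cells (iTreg) with TGFb1 alone at 2 ng/ml. Each culture received vehicle or DFMO at 100 µM, and live cells were sorted at 68 h. DFMO (difluoromethylornithine) blocks polyamine synthesis at its first enzyme, ornithine decarboxylase. The 6 groups therefore held 3 libraries each, 1 from every animal, and all were cultures grown outside the animal; ages were not given in the sources used here.

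Complexes I and II pass electrons from NADH and from succinate to ubiquinone, complex III passes them to cytochrome c and complex IV to oxygen. Complexes I, III and IV move protons across the inner mitochondrial membrane, and ATP synthase, complex V, makes ATP as protons flow back. All of the genes named here are read from nuclear DNA; the subunits read from mitochondrial DNA were not analysed here. Activated T cells are known to enlarge glycolysis, and the balance of glycolysis and respiration is known to differ between effector and regulatory T cells.

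RNA-seq covered whole transcripts, and the 18 libraries held between 8307662 and 13986943 estimated counts after the 2 sequencing runs of each were added. Levels are given as TPM, a value scaled to transcript length and to the library, which can be set side by side between genes. Changes are log2 ratios of scaled counts from edgeR's quasi-likelihood test, with p-values adjusted over the 11526 genes tested, and a gene is said to have changed where the adjusted p was under 0.05. A positive change means higher with DFMO than with vehicle. Of the 86 genes, 82 had enough counts to be tested, and NDUFA4L2, COX7B2, COX8B and COX8C did not, with at most 5 counts in any group of 3 libraries. All 5 T cell markers were measured, with a summed level of 912 to 1513 CPM per library. CPM are counts scaled to the library total with edgeR's scaling factors. All 5 B cell markers together reached at most 23.4 CPM and 6 erythroid and platelet markers at most 1.26 CPM. HBB-BS, PF4 and PPBP were at 0 in every library. Of 6 myeloid markers 5 were listed, with 78.9 to 126 CPM in all and LYZ2 at 0 in every library; 5 markers of NK and innate lymphoid cells summed to at most 113 CPM with KLRB1C at 0 throughout, and 2 CD8 T cell markers to at most 26.2 CPM. The 4 Th17 markers moved with DFMO in Th17p cells, from 1838 to 2031 CPM down to 180 to 260 CPM. The 4 regulatory T markers, all measured, went from 1871 to 2038 CPM down to 1170 to 1257 CPM in the same cells. They also fell in Th17n cells (2311 to 2574, then 2075 to 2304 CPM). In iTreg cells they fell from 1727 to 2163 down to 1550 to 1622 CPM. The T cell markers fell in Th17p cells (1270 to 1513, then 1177 to 1226 CPM). In Th17n cells they went from 1200 to 1283 CPM down to 912 to 978 CPM, and in iTreg cells from 1058 to 1082 up to 1090 to 1221 CPM. The NK and innate lymphoid markers were NCR1, KLRB1C, KLRA8, EOMES and GATA3, of which 2 had enough counts to be tested. Their sum went from 19.8 to 27.2 CPM up to 30.1 to 41.5 CPM in Th17p cells. It went from 7.43 to 11.2 CPM down to 1.96 to 4.89 CPM in Th17n cells. In iTreg cells it went from 61.7 to 113 CPM down to 56.1 to 60.7 CPM. This sum is not read as a number of NK or innate lymphoid cells. The part of these shifts in the changes of the subunit genes was not tested. In sorted cells grown in bulk, fewer cells of a type and less RNA per cell cannot be told apart.

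Promoters are shown first because nuclear subunit genes are known to carry sites for shared transcription factors, among them NRF1, ETS-family factors such as GABPA, and YY1. RefSeq promoter windows (GRCm38.p6, 250 bases before to 50 bases after the start) were matched for 70 of the 86 genes, which gave 76 windows. Letters searched on both strands were GCGCANGCGC for NRF1, CCGGAAG for ETS factors, AAGATGGC for YY1 and CACGTG for E-box factors; this motif set and the promoters printed were picked after results were known. The NRF1 letters stood in 18 windows (23.7%), against 4.60% of all 32851 windows, and the ETS letters in 16 (21.1%), against 8.86%. YY1 letters were found in 12 windows (15.8%, against 2.75% of all) and the E-box in 9 (11.8%, against 7.15%). The following 5 promoters show the contrast between subunit genes with and without the letters; each is the 250 bases before the start, 5′ to 3′ on the gene's strand, with matches of any of the motifs in capitals. ATP5H (chr11:115419920-115420169, minus strand), the peripheral-stalk subunit d, held an NRF1 and an ETS match. NDUFS6 (chr13:73328483-73328732, minus strand), a zinc-binding subunit of complex I, held 1 NRF1 match. SDHA (chr13:74350241-74350490, minus strand), the flavoprotein that oxidises succinate, held 3 NRF1 matches. No match lay in the printed bases of NDUFA4 (chr6:11907451-11907700, minus strand) or NDUFV3 (chr17:31519865-31520114, plus strand), which had opposite responses to DFMO in all 3 lineages.
ATP5H promoter: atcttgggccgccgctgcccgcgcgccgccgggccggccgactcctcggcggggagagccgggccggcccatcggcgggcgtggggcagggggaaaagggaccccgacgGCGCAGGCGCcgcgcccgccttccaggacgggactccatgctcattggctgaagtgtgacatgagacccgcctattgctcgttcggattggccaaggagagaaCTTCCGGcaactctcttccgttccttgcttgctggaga
NDUFS6 promoter: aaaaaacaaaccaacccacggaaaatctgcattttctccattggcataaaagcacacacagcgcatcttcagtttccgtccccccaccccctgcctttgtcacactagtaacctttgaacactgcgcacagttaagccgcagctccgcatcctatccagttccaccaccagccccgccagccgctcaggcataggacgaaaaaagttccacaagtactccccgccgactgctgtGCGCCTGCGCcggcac
SDHA promoter: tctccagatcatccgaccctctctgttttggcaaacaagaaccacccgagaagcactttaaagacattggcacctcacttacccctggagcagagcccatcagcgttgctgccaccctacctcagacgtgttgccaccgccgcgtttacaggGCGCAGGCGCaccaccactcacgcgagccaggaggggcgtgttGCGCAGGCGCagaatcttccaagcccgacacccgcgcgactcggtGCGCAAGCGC
NDUFA4 promoter: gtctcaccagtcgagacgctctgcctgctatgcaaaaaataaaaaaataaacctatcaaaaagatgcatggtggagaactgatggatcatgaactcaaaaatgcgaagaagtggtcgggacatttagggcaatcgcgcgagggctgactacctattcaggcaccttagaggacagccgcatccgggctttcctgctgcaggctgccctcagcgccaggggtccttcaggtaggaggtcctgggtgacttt
NDUFV3 promoter: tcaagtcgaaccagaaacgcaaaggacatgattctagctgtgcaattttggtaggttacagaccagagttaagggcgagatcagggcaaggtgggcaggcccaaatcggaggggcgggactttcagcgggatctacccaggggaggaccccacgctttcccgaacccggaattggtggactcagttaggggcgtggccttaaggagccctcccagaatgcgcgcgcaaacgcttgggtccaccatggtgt
Among tested genes with a window, the median DFMO change of the 17 with NRF1 letters was 0.21, 0.26 and 0.43 on the log2 scale in Th17p, Th17n and iTreg cells, beside 0.17, 0.19 and 0.33 for the 51 without. For the 16 with ETS letters it was 0.21, 0.32 and 0.47, beside 0.18, 0.19 and 0.33 for the 52 without. For the 11 genes with YY1 letters it was 0.16, 0.27 and 0.23, beside 0.19, 0.23 and 0.37 for the 57 without. For the 7 with the E-box it was 0.17, 0.33 and 0.29, beside 0.19, 0.23 and 0.36 for the 61 without. These medians are descriptions without a test, and a match of letters is not a measured binding site.

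In all 6 groups the genes with the highest and second-highest levels were ATP5B, the catalytic beta subunit of ATP synthase, and COX4I1, a regulatory subunit of cytochrome c oxidase. ATP5B led in 5 groups, and in vehicle-treated Th17n cells COX4I1 (mean 1229 TPM) stood above ATP5B (mean 1137 TPM). NDUFA4 held the third place in iTreg cells with either treatment and in DFMO-treated Th17p cells. At the low end, the isoforms that are known from muscle, lung or testis, COX6A2, COX4I2 and COX6B2, were at most 15.5 TPM in every library, and the muscle isoform COX7A1 reached 32.8 TPM.

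With DFMO more subunit genes rose than fell in each lineage. In Th17p cells 25 of the 82 tested genes rose and 8 fell, where 15.9% of all tested genes rose and 17.1% fell. In Th17n cells 38 rose and 13 fell, beside 22.8% and 23.7% of all tested genes. In iTreg cells 50 rose and 4 fell, beside 18.3% and 19.2% of all tested genes. The median change of the 82 genes was 0.18, 0.23 and 0.36 on the log2 scale in Th17p, Th17n and iTreg cells, while the median of all tested genes was 0.00, -0.02 and -0.05. Of the 82 genes 70 have transcripts of at most 907 bases, a class in which the median of all genes was 0.03, 0.01 and 0.02 and that of the 70 was 0.19, 0.23 and 0.35. The median was highest for complex V in each lineage, at 0.27, 0.32 and 0.49. For complex I it was 0.18, 0.23 and 0.33, for complex II 0.12, 0.19 and 0.28, for complex III 0.19, 0.18 and 0.34 and for complex IV 0.17, 0.18 and 0.37.

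**Figure D1:**
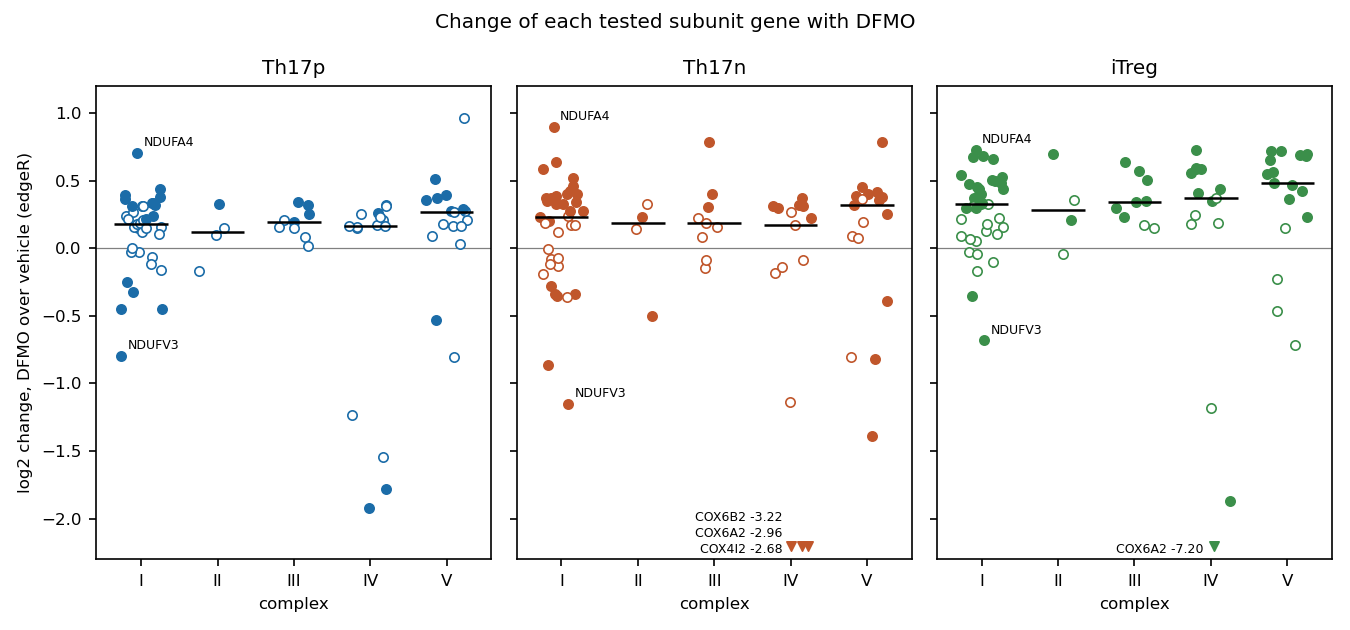
DFMO change of each tested subunit gene (log2 ratio of DFMO to vehicle, vertical axis) by complex, with 1 panel per lineage; filled points passed an adjusted p of 0.05, open points did not, bars are the median of the complex, and triangles are genes below the axis with their value written beside them. Most points lie above 0 in each panel, and the bar of complex V is the highest, at 0.27, 0.32 and 0.49.

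The same 19 genes rose in all 3 lineages, where 8.57% of all tested genes did: NDUFA1, NDUFA3, NDUFA4, NDUFA10, NDUFA12, NDUFB2, NDUFB7, NDUFS6, NDUFS8 and NDUFV1 of complex I, UQCR10 of complex III, COX4I1 and COX6B1 of complex IV, and ATP5A1, ATP5B, ATP5G1, ATP5H, ATP5J and ATP5O of complex V. NDUFB9, NDUFV3 and COX6B2 fell in all 3, where 8.25% of all tested genes did. For COX6B2 a decrease was favoured by the low-count filter, as described below. A further 21 genes rose in 2 lineages and 14 in 1, beside 8.6% and 14.0% of all tested genes. Of the subunit genes 0 rose in one lineage and fell in another. The share of all tested genes that did so was not taken, so this count is not read as a result. The 3 DFMO comparisons share no library, but they come from the same 3 animals and from 1 fit with 1 estimate of spread per gene. Agreement between them is therefore not independent replication. Without animal 1, 2 or 3, the number that rose in all 3 lineages was 9, 11 and 4. Of all tested genes 6.21%, 4.8% and 5.27% did so. The 4 of 82 left without animal 3 are no excess over that share. Those 4 (ATP5A1, ATP5B, ATP5G1 and NDUFA4) kept their calls in each lineage under all 14 alternatives, as did NDUFV3 among the genes that fell. Subunit genes that fell in all 3 lineages numbered 3, 1 and 2, beside 5.62%, 4.53% and 5.3% of all tested genes. The count in Th17p cells rests on all 3 animals. Leaving out animal 1 gave 10 that rose and 6 that fell, animal 2 gave 18 and 4, and animal 3 gave 6 and 7. Of all genes 2556 of 11710, 2416 of 11556 and 2632 of 11463 were then called in either direction. Without animal 1 or 3 a smaller share of the 82 subunit genes was called than of all genes. The subunit median in these fits was 0.144, 0.253 and 0.132, and that of all genes 0.007, -0.012 and 0.005. In Th17n cells leaving out animal 3 gave 21 that rose and 14 that fell, beside 4397 of 11463 genes called in either direction. In iTreg cells the split depends on scaling: with no scaling factors 37 rose and 8 fell, and log2(TPM + 1) gave 33 and 11, settings that put the median of all genes at -0.21 and the median of the subunit genes 0.40 and 0.34 above it. On log2(TPM + 1) with no low-value filter 30 rose and 11 fell, the median of all genes was -0.03 and that of the subunit genes stood 0.16 above it.

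**Figure D2:**
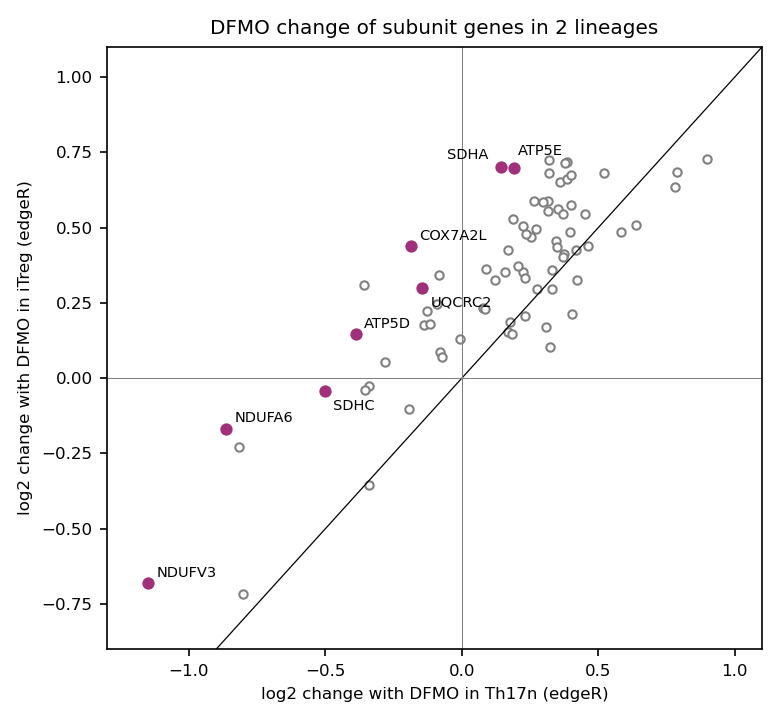
DFMO change in iTreg cells (vertical axis) against that in Th17n cells (horizontal axis). Both are log2 ratios to vehicle, drawn for 78 of the 82 tested subunit genes. Filled points with names are genes whose difference between these effects had an adjusted p under 0.05 in edgeR's test, and open points are the rest. ATP5S, COX4I2, COX6A2 and COX6B2 lie beyond the axes. Most genes stand in the upper right part, with NDUFA4 (not labelled) high on both axes and NDUFV3 low on both.

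Complex I takes electrons from NADH at its flavin, passes them along iron-sulfur clusters and ends in a membrane arm that pumps protons. With DFMO 12 of its 37 tested genes rose and 5 fell in Th17p cells. NDUFA4, placed here by name, is among those that rose in each lineage. The counts were 19 and 6 for Th17n, then 20 and 2 for iTreg. As shares of the complex these are 32.4% and 13.5%, 51.4% and 16.2%, and 54.1% and 5.4%, to be read against the shares of all tested genes given above (15.9% and 17.1%, 22.8% and 23.7%, 18.3% and 19.2%). NDUFV1, the subunit that binds NADH and the flavin, was at 92.0, 92.9 and 98.6 TPM in vehicle-treated Th17p cells and at 113.5, 114.3 and 106.0 TPM with DFMO, and at 86.5, 89.1 and 95.7 TPM and 115.0, 134.0 and 112.9 TPM in Th17n cells. The groups did not overlap in either Th17 lineage. The Th17p call (0.22) was lost when any 1 animal was left out (0.16, 0.25 and 0.23), and the Th17n change of 0.33 was kept under all 14 alternatives. In iTreg cells the TPM values overlapped (115.7, 109.3 and 114.1 with vehicle, 107.8, 127.5 and 123.1 with DFMO), so its call there, a change of 0.30 on scaled counts, was absent on log2(TPM + 1), where the change was 0.08, and without animal 2 or 3 (0.24 and 0.28). NDUFA12, an accessory subunit that stands near the NADH-binding module, was at 231.9, 235.4 and 237.3 TPM and rose to 331.2, 291.5 and 338.1 TPM in Th17p cells, from 195.8, 199.2 and 225.3 to 341.0, 320.9 and 323.3 TPM in Th17n cells, and from 311.7, 252.2 and 286.9 to 324.8, 365.1 and 328.8 TPM in iTreg cells. Its DFMO libraries were above every vehicle library of the same lineage, and the Th17p call was lost without animal 3 (0.34). NDUFS1, the largest of the iron-sulfur subunits, was lower, at 38.7 to 47.1 TPM with vehicle and 45.4 to 57.1 TPM with DFMO in Th17p cells, where its change of 0.21 did not pass. It rose by 0.27 in Th17n cells (lost without animal 1 or 2, at 0.25 and 0.21) and by 0.50 in iTreg cells (lost on log2(TPM + 1) at 0.27). NDUFS8, which carries iron-sulfur clusters next to the ubiquinone site, rose in Th17p cells from 177.8, 171.8 and 190.0 to 219.6, 225.9 and 232.8 TPM, a call lost without animal 3 (0.29).

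NDUFV3 (chr17:31520115-31531331, GRCm38), a small subunit of the NADH-binding module beside NDUFV1, went the other way. Its level in Th17p cells was 569.2, 480.5 and 457.8 TPM with vehicle and 275.8, 266.9 and 279.6 TPM with DFMO. In Th17n cells it was 527.5, 473.9 and 477.5 against 210.8, 229.0 and 234.4 TPM, and in iTreg cells 388.7, 349.2 and 369.9 against 188.6, 198.8 and 212.6 TPM. Every DFMO library was below every vehicle library of all 3 lineages. The log2 changes were -0.80 ± 0.11 (SE, edgeR adjusted p = 8.5e-06), -1.15 ± 0.11 (adjusted p = 2.9e-08) and -0.68 ± 0.11 (adjusted p = 3.7e-05), each in 3 of 3 animals and each past the threshold under all 14 alternatives run. NDUFB9, a subunit of the membrane arm, fell in all 3 lineages (-0.45, -0.34 and -0.36), and the call in iTreg cells was lost without animal 2 (-0.31). NDUFB9 shares 193 exon bases on the same strand with the gene model Gm49356, so its reads are uncertain. NDUFA6, an accessory subunit with an LYR motif, was at 382.2, 361.4 and 402.2 TPM in vehicle-treated Th17p cells and 275.6, 267.2 and 302.6 TPM with DFMO. In Th17n cells it fell from 475.8, 449.5 and 463.0 to 256.8, 261.9 and 293.7 TPM, a change of -0.86 ± 0.10 (SE, edgeR adjusted p = 3.1e-07). In iTreg cells its change was -0.17 (adjusted p = 0.18), which did not pass. NDUFA13 and NDUFS3 were called lower in both Th17 lineages, NDUFA13 at -0.33 and -0.34 and NDUFS3 at -0.25 and -0.28. Without animal 2 all 4 calls were lost (-0.27 and -0.24, -0.12 and -0.22), and without animal 1 the NDUFA13 call in Th17p cells (-0.35) and both NDUFS3 calls (-0.30 and -0.29). NDUFA7 fell in Th17n cells (-0.36).

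NDUFA4 (chr6:11900292-11907497, GRCm38, minus strand) is named for complex I but is known to sit in cytochrome c oxidase. It was at 729.7, 745.2 and 666.5 TPM in vehicle-treated Th17p cells and at 1228, 1172 and 1132 TPM with DFMO. In Th17n cells it was at 373.8, 393.2 and 436.7 TPM with vehicle and 785.8, 780.7 and 818.4 TPM with DFMO. In iTreg cells it was at 1192, 772.6 and 838.0 TPM with vehicle and 1382, 1301 and 1276 TPM with DFMO. DFMO libraries were above all vehicle libraries of their lineage, and the iTreg vehicle library of animal 1 stood above the other two. The log2 changes were 0.71 ± 0.14 (SE, edgeR adjusted p = 0.00065), 0.90 ± 0.14 (adjusted p = 3.6e-05) and 0.73 ± 0.14 (adjusted p = 0.00037), each in 3 of 3 animals and kept under all 14 alternatives.

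AA467197, the mouse gene of the protein NMES1 (human C15orf48), which resembles NDUFA4 and is known to take its place in cytochrome c oxidase, is not one of the 86 genes and was looked at after its values were seen. Its level with vehicle was 135.4, 172.7 and 220.5 TPM in Th17p cells, 413.7, 373.7 and 428.5 TPM in Th17n cells and 34.4, 55.7 and 76.3 TPM in iTreg cells. The 3 lineages did not overlap, all 3 differences between them passed under all 14 alternatives (1.35 for Th17n against Th17p, -3.05 for iTreg against Th17n and -1.70 for iTreg against Th17p), and their order was the reverse of that of mean NDUFA4. With DFMO it was at 120.3, 65.2 and 98.8 TPM in Th17p cells and 290.0, 243.0 and 246.0 TPM in Th17n cells, below every vehicle library of the same lineage. Its log2 changes there were -0.89 (edgeR adjusted p = 0.018) and -0.73 (adjusted p = 0.029). The first call was lost when animal 2 or 3 was left out or when only the groups compared were fitted, and the second in 4 of the 14 alternatives. In iTreg cells DFMO gave 55.9, 65.6 and 59.2 TPM, a change of 0.34 (adjusted p = 0.36) with overlapping groups. As a share of the summed TPM of both genes, AA467197 went from 19.8% with vehicle to 7.40% with DFMO in Th17p cells. The shares were 50.3% against 24.6% for Th17n and 5.96% against 4.37% for iTreg.

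**Figure D3:**
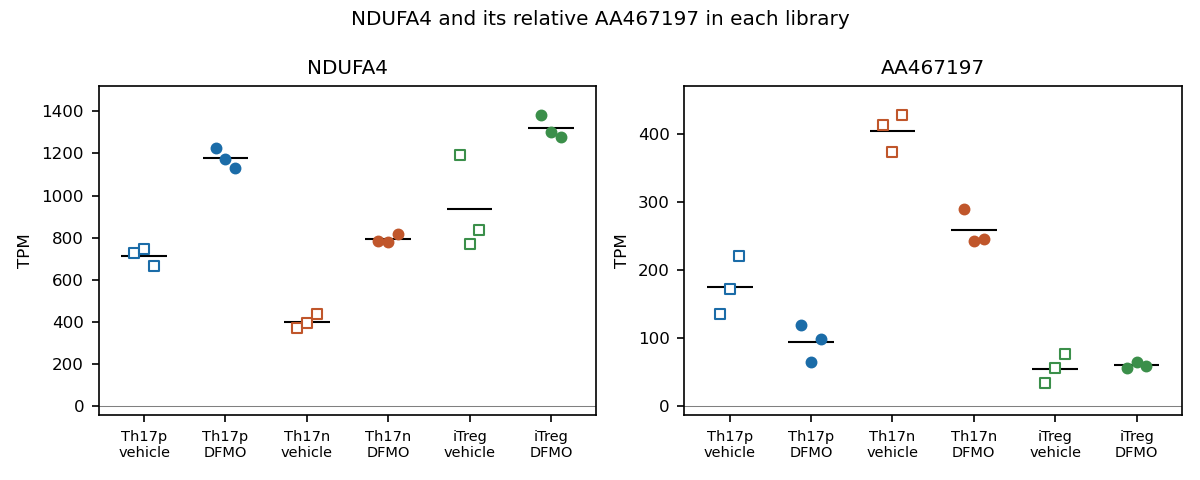
TPM of NDUFA4 and AA467197 in each library (vertical axis, linear from 0) for the 6 groups (horizontal axis); open squares are vehicle, filled circles DFMO, bars the mean of 3 animals. NDUFA4 with DFMO lies above vehicle in each lineage, and AA467197 is highest in vehicle-treated Th17n cells, at 373.7 to 428.5 TPM.

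Complex II, succinate dehydrogenase, is the enzyme shared by the tricarboxylic acid cycle and the respiratory chain: SDHA and SDHB carry the flavin and the iron-sulfur clusters, and SDHC and SDHD anchor them in the membrane. SDHA was at 168.0, 160.7 and 173.0 TPM in vehicle-treated iTreg cells and at 227.1, 257.4 and 216.5 TPM with DFMO, with no overlap. It was at 148.7, 149.2 and 184.0 TPM with vehicle and 203.1, 202.6 and 206.9 TPM with DFMO in Th17p cells. In Th17n cells vehicle gave 144.1, 142.5 and 174.8 TPM and DFMO 163.7, 192.1 and 183.2 TPM, and the groups overlapped. The changes were 0.33 ± 0.08 in Th17p cells (SE, edgeR adjusted p = 0.0022), lost without animal 1 (0.26). They were 0.14 ± 0.08 in Th17n cells (adjusted p = 0.14) and 0.70 ± 0.08 in iTreg cells (adjusted p = 5.0e-07). Its partners did not share this pattern of calls. SDHB rose in Th17n cells (0.23, lost without animal 3 at 0.21) and in iTreg cells (0.21, but -0.01 on log2(TPM + 1) and lost without animal 2 or 3 at 0.13 and 0.26), SDHC fell in Th17n cells (-0.50, adjusted p = 0.00052), and SDHD passed in 0 lineages, with values of 0.15, 0.33 and 0.36.

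Complex III holds cytochrome b, which is read from mitochondrial DNA, together with cytochrome c1 (CYC1), the Rieske iron-sulfur protein (UQCRFS1), the core proteins UQCRC1 and UQCRC2 and small subunits. With DFMO 4 of its 9 genes rose in Th17p cells, 3 did in Th17n cells, 7 in iTreg cells, and 0 fell in any lineage, beside 15.9%, 22.8% and 18.3% of all tested genes that rose. UQCR11, a small subunit of the membrane part, was at 292.3, 266.6 and 313.8 TPM in vehicle-treated Th17n cells and at 532.5, 552.6 and 511.3 TPM with DFMO, a change of 0.78 ± 0.10 (SE, edgeR adjusted p = 3.1e-06). In iTreg cells it rose from 450.6, 330.8 and 351.0 to 472.9, 534.1 and 496.0 TPM, a change of 0.64. Its values in Th17p cells were 362.4, 343.8 and 363.0 TPM and then 422.7, 418.4 and 404.1 TPM, and the change of 0.21 did not pass (adjusted p = 0.13). UQCR10 rose by 0.34, 0.40 and 0.57, and its call was lost without animal 1 or 3 in Th17p cells and without animal 3 in Th17n cells. CYC1 rose by 0.25 in Th17p cells (lost without animal 1 or 3) and 0.31 in Th17n cells. UQCRC1, a core protein, was called in Th17p and iTreg cells (0.19 and 0.23), but its TPM values overlapped in iTreg cells (326.0, 309.3 and 299.2 with vehicle, 297.6, 327.8 and 318.4 with DFMO) and both calls were lost when animal 2 or 3 was left out. UQCRFS1, the subunit that moves electrons to cytochrome c1, passed in 0 lineages, with changes of 0.09, 0.18 and 0.15.

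Complex IV reduces oxygen, and several of its nuclear subunits exist as a widely expressed isoform and a tissue-restricted one. Of 15 tested genes 2 rose and 2 fell with DFMO in Th17p cells. Both are 13.3%, beside 15.9% and 17.1% of all tested genes, so Th17p cells show no excess of genes that rose. Th17n cells had 6 higher with 3 lower (40% and 20%, beside 22.8% and 23.7% of all genes). iTreg cells had 8 with 2 (53.3% and 13.3%, beside 18.3% and 19.2%). Those that fell were low, tissue-restricted isoforms: COX6B2 and COX7A1 (Th17p), COX4I2, COX6A2 and COX6B2 (Th17n), and COX6A2 and COX6B2 (iTreg). For COX4I2, COX6A2 and COX6B2 the low-count filter described below favoured a decrease. The counts that fell are therefore not read against the shares of all genes. Among the ubiquitous isoforms, COX6B1 was at 682.2, 518.2 and 598.6 TPM in vehicle-treated iTreg cells and at 827.4, 881.9 and 830.5 TPM with DFMO, a change of 0.72 ± 0.10 (SE, edgeR adjusted p = 8.8e-06). In Th17p cells it was at 692.9, 635.2 and 648.0 TPM and 840.9, 799.3 and 846.4 TPM, and in Th17n cells at 619.6, 629.7 and 643.6 TPM and 836.7, 792.6 and 879.5 TPM. Both Th17 changes were 0.32, the groups did not overlap, and both calls were lost without animal 3 (0.23 and 0.24). COX4I1 rose by 0.26, 0.22 and 0.35, and each call was lost under some alternative, among them leaving out animal 2 or 3 in both Th17 lineages (0.33 and 0.19 in Th17p cells, 0.29 and 0.14 in Th17n cells) and animal 1 in Th17p cells (0.27). COX7A2 rose in iTreg cells from 491.1, 359.2 and 379.7 to 550.8, 522.9 and 505.4 TPM. COX5B, a zinc-binding subunit, rose in Th17n cells from 527.3, 477.5 and 541.1 to 723.4, 706.5 and 700.0 TPM, a change of 0.38 (edgeR adjusted p = 0.0017), although 97.2% of its run counts were not whole. COX6A1 passed in 0 lineages, with changes of 0.16, 0.18 and 0.19, and so did COX8A, a small subunit at 855 to 1170 TPM, with 0.16, -0.14 and 0.18.

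The restricted isoforms were low. The low-count filter asked for at least 0.971 CPM, taken here without scaling factors, in 3 or more libraries of any group. COX6A2 and COX6B2 were above that level in every library of the 3 vehicle groups and throughout no DFMO group. A decrease with DFMO was therefore favoured by the filter. COX6B2, the testis isoform, had 23, 21 and 35 estimated counts in vehicle-treated Th17p libraries and 8, 9 and 10 with DFMO. In Th17n cells it had 45, 36 and 30 counts with vehicle and 3, 3 and 7 with DFMO, and in iTreg cells 16, 26 and 26 against 4, 8 and 6. No DFMO library reached a vehicle library of its lineage. Its changes were -1.78, -3.22 and -1.87, the Th17n call held under all 14 alternatives, and the Th17p and iTreg calls were lost without animal 2 or 3 (-1.72 and -1.71, and -1.92 and -1.79). COX6A2 (chr7:128205435-128206387, GRCm38), the heart and muscle isoform, had 12, 24 and 21 counts in vehicle-treated iTreg libraries and 0, 0 and 0 with DFMO, at least 21.0-fold lower when the floor is 3 counts over the group. In Th17n cells it had 13, 21 and 29 counts and then 5, 2 and 1, a change of -2.96, and in Th17p cells 35, 25 and 24 and then 11, 25 and 9, which did not pass. COX6A2 shares 70 exon bases with Itgad on the opposite strand, and reads of the pair cannot be told apart if strand was not used. COX7A1, the muscle isoform, fell in Th17p cells (-1.92, and -1.13 without animal 2, where the call was lost), with 17, 38 and 17 counts with vehicle and 8, 7 and 8 with DFMO. COX4I2, an isoform known from lung, had 18, 20 and 34 counts in vehicle-treated Th17n libraries and 8, 0 and 3 with DFMO. It passed the low-count filter only through vehicle-treated Th17n cells, so its lower counts elsewhere are given as a description, and its call, counted above among the genes that fell in Th17n cells, is read as no result. COX7A2L was at 352.2, 317.4 and 349.7 TPM in vehicle-treated iTreg cells and rose to 404.7, 403.5 and 375.8 TPM. Its changes in Th17p and Th17n cells, 0.17 and -0.19, did not pass.

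**Figure D4:**
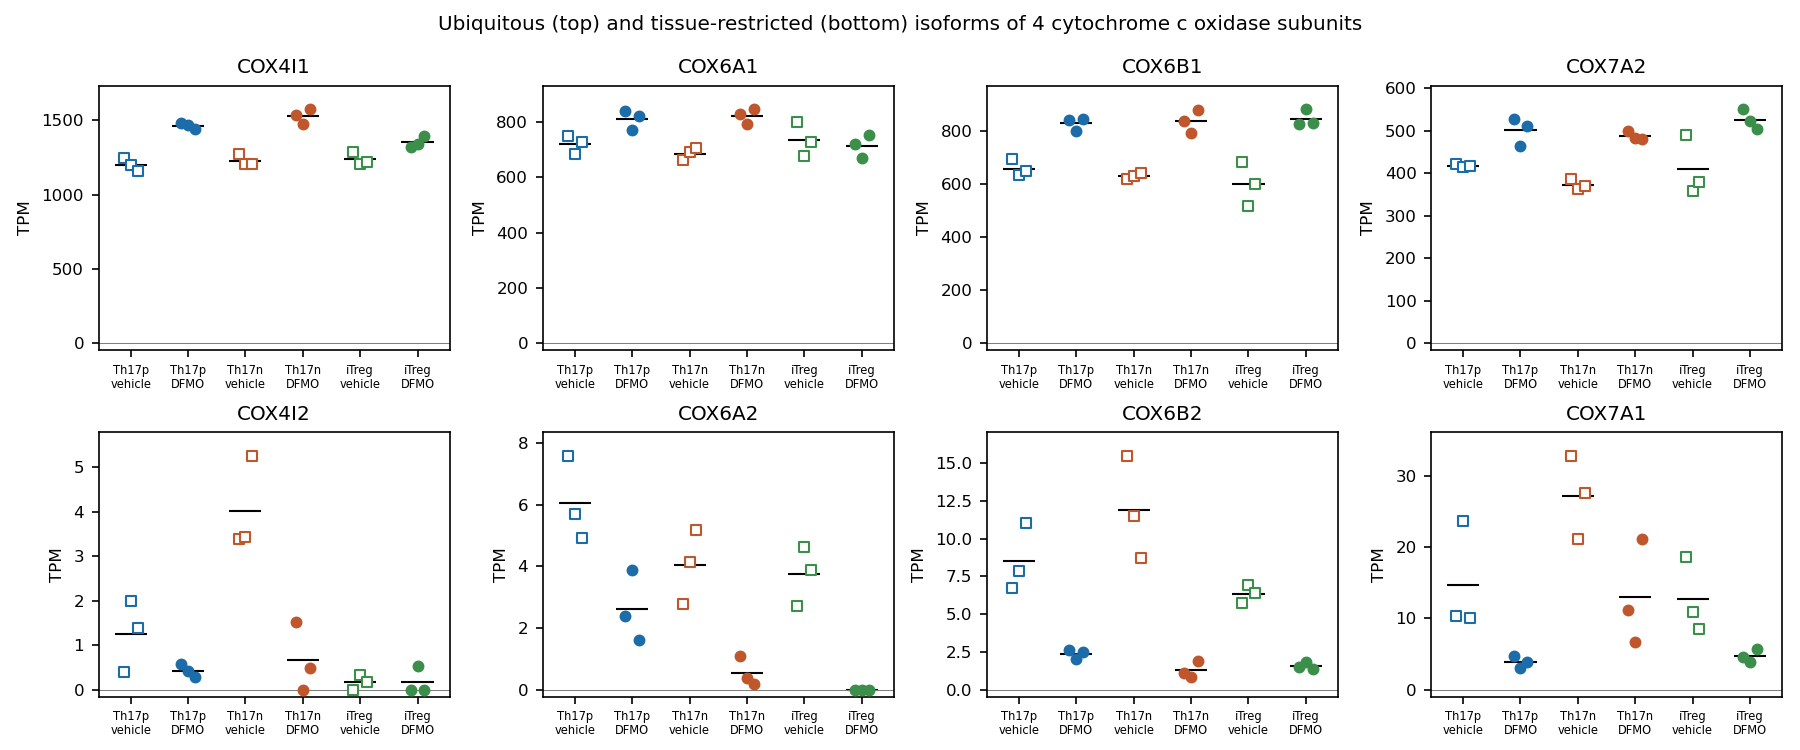
TPM in each library for the ubiquitous isoform (top row) and the tissue-restricted isoform (bottom row) of 4 cytochrome c oxidase subunits, on linear axes of different range; open squares are vehicle, filled circles DFMO, bars the mean of 3 animals. COX6B2 with DFMO lies below vehicle in all 3 lineages, and COX6A2 is at 0 in all 3 DFMO-treated iTreg libraries.

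As a share of the summed TPM of both isoforms, COX6B2 went from 1.28% with vehicle to 0.287% with DFMO in Th17p cells, from 1.86% to 0.151% for Th17n and from 1.07% to 0.186% for iTreg. The ubiquitous isoform thus made up nearly all of each pair with either treatment.

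Complex V couples a catalytic head (ATP5A1 and ATP5B) to a membrane ring of subunit c through a central stalk (ATP5C1, ATP5D and ATP5E). Subunit c is encoded by 3 genes (ATP5G1, ATP5G2 and ATP5G3). Complex V also has a peripheral stalk. With DFMO 6 of its 17 genes rose and 1 fell in Th17p cells. In Th17n cells 9 rose with 3 lower, and in iTreg cells 13 rose with 0 lower. The genes that fell were ATP5SL in Th17p cells and ATP5D, ATP5S and ATP5SL in Th17n cells. ATP5SL and ATP5S are counted here by name only. The shares that rose were 35.3%, 52.9% and 76.5%, beside 15.9%, 22.8% and 18.3% of all tested genes. ATP5B was at 1183, 1163 and 1311 TPM in vehicle-treated Th17p cells and at 1717, 1763 and 1804 TPM with DFMO. It was at 1076, 1105 and 1229 TPM and then 1556, 1581 and 1617 TPM in Th17n cells, and at 1306, 1283 and 1374 TPM and then 1404, 1722 and 1658 TPM in iTreg cells. The groups did not overlap, although the lowest iTreg DFMO library, that of animal 1, was close to vehicle. Its changes were 0.51 ± 0.06 (SE, edgeR adjusted p = 2.6e-06), 0.40 ± 0.06 (adjusted p = 2.0e-05) and 0.49 ± 0.06 (adjusted p = 3.0e-06), kept under all 14 alternatives. ATP5A1, the alpha subunit that alternates with beta in the head, went from 456.5, 465.9 and 514.5 to 607.1, 645.4 and 634.1 TPM in Th17p cells and from 402.4, 431.8 and 453.0 to 554.4, 589.2 and 600.9 TPM in Th17n cells. In iTreg cells it went from 532.2, 507.6 and 517.6 to 589.8, 728.3 and 663.6 TPM, and all 3 changes (0.37, 0.35 and 0.56) were kept under all 14 alternatives.

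ATP5G1, 1 of the 3 subunit c genes, was at 249.7, 252.9 and 261.4 TPM in vehicle-treated Th17p cells and 351.4, 323.9 and 341.5 TPM with DFMO. It went from 189.9, 190.6 and 236.7 to 396.4, 367.7 and 362.2 TPM in Th17n cells and from 357.5, 317.9 and 325.8 to 435.0, 469.2 and 479.5 TPM in iTreg cells. Every DFMO library stood above the vehicle libraries of its lineage, and the changes of 0.40, 0.79 and 0.69 were kept under all 14 alternatives. ATP5G3 rose in Th17n (0.42) and iTreg cells (0.43, lost without animal 2 at 0.36 and on log2(TPM + 1) at 0.22). ATP5G2 did not pass in any lineage (0.96, -0.80 and -0.72), and its libraries scattered from 0.22 to 244 TPM within DFMO-treated Th17n cells. Counts of ATP5G2 were not whole in 88.9% of run values, and those of ATP5G1 and ATP5B in 66.7% and 97.2%, a mark of reads shared out among near-identical copies, so the levels of these genes are uncertain. ATP5D, the delta subunit of the central stalk, fell in Th17n cells, from 823.1, 766.1 and 795.9 to 649.3, 652.5 and 635.3 TPM, a change of -0.39 ± 0.07 (SE, edgeR adjusted p = 0.00011). Its changes of 0.03 in Th17p and 0.15 in iTreg cells did not pass. ATP5J2, the small subunit f, rose in iTreg cells from 536.8, 407.9 and 406.1 to 680.3, 635.9 and 577.8 TPM, a change of 0.72 (adjusted p = 0.00014). ATP5SL and ATP5S, which carry ATP synthase symbols but are not known as parts of the enzyme, fell in Th17n cells (-0.82 and -1.39), and ATP5SL also in Th17p cells (-0.53, lost without animal 1 at -0.39). ATP5S was low, at 5.53, 7.26 and 7.14 TPM in vehicle-treated Th17n cells and 3.23, 3.37 and 1.48 TPM with DFMO.

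The summed TPM of all 86 genes was 26763, 26468 and 27149 in vehicle-treated Th17p libraries and 32096, 30780 and 31417 with DFMO. It was 24873, 24663 and 26151 and then 30700, 29889 and 30523 in Th17n cells, and 29851, 25522 and 26897 and then 30735, 31593 and 30980 in iTreg cells. In every animal the DFMO sum was above the vehicle sum, and the iTreg vehicle library of animal 1 came closest to the DFMO range. The mean log2 ratio was 0.23 ± 0.03 (SD, n = 3), 0.27 ± 0.04 and 0.19 ± 0.13. As a share of the whole TPM scale the genes took 2.68% with vehicle against 3.14% with DFMO in Th17p cells, 2.52% against 3.04% for Th17n and 2.74% against 3.11% for iTreg. Listed genes held 72.4% to 80.5% of that scale per library, so the TPM sums do not run over a complete transcriptome. In Th17p cells that share went from 74.7% to 77.5% with vehicle to 79.4% to 80.5% with DFMO. In Th17n cells it went from 73.1% to 75.1% up to 76.9% to 78.0%. In iTreg cells it was 72.4% to 75.1% with vehicle and 74.7% to 77.8% with DFMO, with overlap. The part of this shift in the rise of the sums was not tested. Summed CPM weights long transcripts more and, unlike TPM, carries edgeR's scaling factors. On it the log2 ratio was 0.17 in Th17n and 0.39 in iTreg cells, so the order of the lineages depends on the scale. The factors were 1.07 to 1.09 in vehicle-treated iTreg libraries and 0.957 to 0.969 with DFMO. In Th17n libraries they were 0.958 to 0.993 and 0.968 to 0.999. The part of the factors in the move between scales was not tested.

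**Figure D5:**
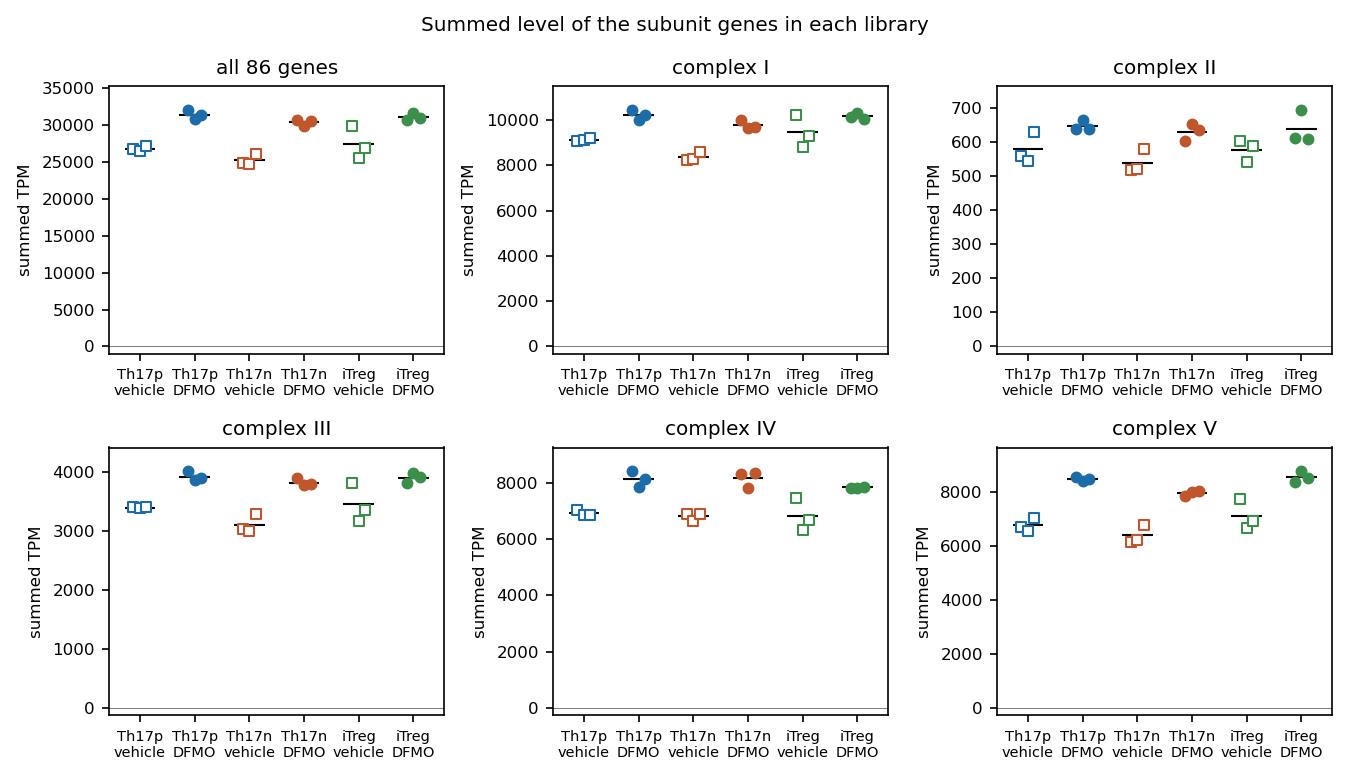
Summed TPM of all 86 genes and of each complex in every library (vertical axes, linear from 0, of different range) for the 6 groups; open squares are vehicle, filled circles DFMO, bars the mean of 3 animals. For all 86 genes vehicle libraries lie between 24663 and 29851 and DFMO libraries between 29889 and 32096.

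Whether DFMO acted unequally in the lineages was tested as a difference of its effects, and few of the 82 genes passed; these comparisons share libraries with one another. Between Th17n and Th17p cells 1 gene had a higher effect and 1 a lower one, where 2.63% and 2.35% of all tested genes did: UQCR11 (difference 0.57) and ATP5D (-0.42), both lost without each animal in turn. With the animal as a block 2 were higher and 3 lower. Between iTreg and Th17n cells 8 genes had a higher effect in iTreg cells and 0 a lower one, beside 6.66% and 5.45% of all tested genes. They were NDUFA6 (0.70 ± 0.14 SE, edgeR adjusted p = 0.0021), COX7A2L (0.62 ± 0.11, adjusted p = 0.0012), SDHA (0.56 ± 0.11, adjusted p = 0.0021), ATP5D (0.53 ± 0.10, adjusted p = 0.0015), ATP5E (0.51), NDUFV3 (0.47), SDHC (0.46) and UQCRC2 (0.45). NDUFA6, COX7A2L, ATP5D, NDUFV3, SDHC and UQCRC2 were also called lower in iTreg than in Th17n cells with vehicle. Those vehicle libraries enter the difference. For NDUFV3 the higher effect was a smaller decrease, and NDUFA6, ATP5D and SDHC were called lower in Th17n but not in iTreg cells. With DFMO mean NDUFA6 was 270.8 TPM in both lineages. ATP5D stayed lower in iTreg cells, at 536.2 against 645.7 TPM. The split of 8 against 0 moved with scaling, to 4 against 2 with no scaling and to 5 against 16 on log2(TPM + 1). These settings put the median difference of all genes at -0.21 and -0.28. With the animal as a block 18 were higher and 0 lower, and ATP5D and COX7A2L were lost under 1 of the 14 alternatives, without animal 2 (0.51 and 0.55). Calls numbered 3 without animal 1, 0 without animal 2 and 5 without animal 3. Between iTreg and Th17p cells 1 gene, SDHA (0.37), had a higher effect and 1, COX6A2, a lower one, beside 3.52% and 3.32% of all tested genes; with the block 11 were higher and 1 lower, and leaving out animal 1, 2 or 3 gave 4, 0 and 0 calls. The fitted COX6A2 difference of -5.97 rests on the iTreg libraries with 0 counts and depends on the prior count.

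Under vehicle the lineages were compared pairwise, and the 3 comparisons share their libraries. Th17n cells had 6 genes higher and 1 lower than Th17p cells, where 9.47% of all tested genes were higher and 10.5% lower. They were ATP5D (0.48), ATP5SL (0.51), COX5A (0.30), COX7A2L (0.36), NDUFA6 (0.41) and NDUFB11 (0.55), and the 1 lower gene was NDUFA4 (-0.71, edgeR adjusted p = 0.0013). Leaving out animal 1, 2 or 3 left 5, 4 and 4 calls. On log2(TPM + 1) the split was 5 higher and 12 lower, and 2 of these 7 genes, ATP5D and NDUFA4, kept their calls under all 14 alternatives. COX7A2L, NDUFB11, ATP5SL and COX5A were lost without animal 2 (0.32, 0.52, 0.48 and 0.26), NDUFB11, ATP5SL and COX5A also without animal 3 (0.57, 0.50 and 0.30), and NDUFA6 and ATP5SL without animal 1 (0.38 and 0.53). Between iTreg and Th17n cells 8 genes were higher and 15 lower in iTreg cells, beside 18.4% and 18.9% of all tested genes, but the split turned to 19 against 8 with no scaling and to 25 against 10 on log2(TPM + 1). The number of calls was 14, 14 and 15 without animal 1, 2 or 3. NDUFB11, a subunit of the membrane arm, was lower in iTreg cells (-0.82, lost without animal 2 at -0.77). NDUFA4 was 1.05 ± 0.14 higher in iTreg cells (SE, edgeR adjusted p = 1.0e-05), in 3 of 3 animals. ATP5D was lower (-0.68, adjusted p = 1.8e-07), with 566.3, 552.7 and 575.9 TPM in iTreg libraries against 766.1 to 823.1 TPM in Th17n libraries. Those 2 calls and those of ATP5G1 (0.52), CYC1 (0.32), COX7A2L (-0.48), NDUFA6 (-0.56), NDUFV3 (-0.52) and SDHC (-0.44) were kept under all 14 alternatives. COX4I2, tested only because it passed the filter in Th17n cells, had 3 counts over the 3 iTreg libraries against 72 in Th17n libraries.

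Between iTreg and Th17p cells 5 genes were higher and 5 lower, beside 14.5% and 15.7% of all tested genes, and the split was 12 against 2 with no scaling and 8 against 5 on log2(TPM + 1). Calls numbered 3 without animal 2 and 3 without animal 3. CYC1, cytochrome c1, was 0.39 ± 0.07 higher in iTreg cells (SE, edgeR adjusted p = 0.00018), the 1 call of the 10 that was kept under all 14 alternatives. The other genes named for their size were NDUFB2 (0.36, lost without each animal in turn, at 0.21, 0.49 and 0.40), ATP5G1 (0.33, lost without animal 3), NDUFV3 (-0.45, lost without animal 2 at -0.39) and UQCRQ, a small subunit of complex III (-0.41, lost without animal 2 at -0.31). NDUFA4 was at 0.34, which did not pass (adjusted p = 0.065). The mean level of NDUFA4 with vehicle thus ran from Th17n through Th17p to iTreg cells, and the difference of the latter pair did not pass.

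Genes around the respiratory chain, taken from lists drawn up with results of these data known, moved in several directions with DFMO. Their counts are to be read against the shares of all tested genes, of which 15.9% rose and 17.1% fell for Th17p, 22.8% and 23.7% for Th17n, and 18.3% and 19.2% for iTreg. Of 19 glycolysis genes 0 rose; 15 fell in each Th17 lineage and 18 in iTreg cells, with medians of -0.59, -0.90 and -1.09. ALDOC, an aldolase, fell in all 3 lineages (-3.659, -5.015 and -5.189), as did PFKM, a phosphofructokinase (-1.53, -1.59 and -1.54), and GPI1, the isomerase of glucose phosphate (-0.70, -1.18 and -1.09). The genes that did not pass were SLC2A1, HK2, PFKL and SLC16A3 in both Th17 lineages, and HK2 in iTreg cells (0.24). Of 17 genes of pyruvate dehydrogenase and the tricarboxylic acid cycle 7 rose and 2 fell in Th17p cells; the counts were 5 and 5 for Th17n, 8 and 1 for iTreg, which is 41.2%, 29.4% and 47.1% that rose. PDHA1, the catalytic alpha subunit of pyruvate dehydrogenase, rose by 0.55, 0.36 and 0.73, and IDH3A, a subunit of the NAD-dependent isocitrate dehydrogenase, by 0.40, 0.44 and 0.40 (the iTreg call was absent on the TPM scales). SUCLG1, a subunit of succinyl-CoA ligase, fell in Th17n cells (-0.50).

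Of 20 genes of electron carriers, other ubiquinone-linked enzymes and carriers of the inner membrane, the numbers that rose and fell were 6 and 2 for Th17p, 7 and 3 for Th17n, 7 and 2 for iTreg, with 30%, 35% and 35% that rose. CYCS, cytochrome c, rose by 0.73, 1.04 and 0.89. DHODH, which passes electrons from pyrimidine synthesis to ubiquinone, rose by 0.92, 1.06 and 1.16. UCP2, an uncoupling-protein homologue, fell in Th17p (-0.55) and Th17n cells (-0.28, lost without animal 1 or 3). Among 41 assembly factors 8 rose and 5 fell for Th17p, 9 and 8 for Th17n, 11 and 3 for iTreg. As shares these are 19.5% and 12.2%, 22% and 19.5%, and 26.8% and 7.3%; those that rose in the Th17 lineages are near the shares of all genes. NDUFAF4, which builds complex I, rose by 0.96, 1.46 and 1.01, while SURF1, which builds complex IV, fell (-0.64, -0.92 and -0.69). Of 11 genes for copying and reading mitochondrial DNA 2 rose and 2 fell, 3 and 2, and 3 and 1, of which the Th17p shares (18.2% each) are near those of all genes. The mitochondrial RNA polymerase POLRMT was higher by 0.73, 1.01 and 1.09. Of 9 regulators 2 rose and 1 fell, 3 and 1, and 4 and 1, with 22.2%, 33.3% and 44.4% that rose. PPRC1, a coactivator of the PGC-1 family, rose by 0.63, 0.88 and 0.50 (the iTreg call was absent on the TPM scales), and HIF1A, the oxygen-regulated factor that is known to drive glycolytic genes, fell (-0.67, -1.26 and -0.93). NRF1 rose by 0.36, 0.57 and 0.35, with its call lost in 6 of 14 alternatives in Th17p and in iTreg cells, among them leaving out animal 2 or 3, and GABPA and YY1 passed in 0 lineages.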

How the data were processed

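RNA was measured by full-length RNA-seq in 36 samples, 2 runs of each of 18 libraries. Expected counts and TPM per gene, as deposited by the authors, come from Bowtie2 and RSEM on GRCm38.p3, per the submitters' processing notes; versions, annotation and use of strand were not given in the sources used here. Expected counts of the 2 runs were added and rounded (12.2% of values were not whole); TPM was averaged over runs. Libraries held 8307662 to 13986943 counts, and genes too low by edgeR's filter were left out. The main test was edgeR 4.0.16 (quasi-likelihood, TMM scaling, all 6 groups in 1 fit, R 4.3.3), with Benjamini-Hochberg adjustment and a threshold of 0.05. Alternatives were RLE or no scaling, no count filter, DESeq2 1.42.0, the animal as replicate block, groups compared only, limma 3.58.1 on log2(TPM + 1) and log2(TPM + 0.1), each run alone, and leaving out each animal; the fit was tested on simulated data, where it missed more of the changed genes at low counts. Labels give the same 3 animals in every group, so replicate numbers pair libraries: deviations of libraries of the same animal had a median correlation of 0.121 over 45 pairs (lowest 0.009), against -0.063 over 90 pairs of different animals. Replicates differed well beyond the 2 runs of a library (chi-square per degree of freedom 3.635 to 12.107 against 1.148 to 1.539). The genes, lists and tests were chosen with earlier results of these data known. Any subunit gene could be named; those in full were, per complex, the members that rose most and fell most among calls (mean log2 CPM of at least 2, same sign in 3 animals), the isoform sets and the catalytic subunits, and from a pathway list up to 3 genes with the smallest p per comparison. Glycolysis genes that did not pass, GABPA and YY1 were named after their values were seen. Promoters are RefSeq's (GRCm38.p6), and exon overlaps come from GENCODE M21 (GRCm38).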

Additional observations from a re-analysis of the deposited data

Results flagged for a closer look

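The DFMO effect differed between lineages, by an interaction term in edgeR's fit with an adjusted p under 0.05, in 12 results. Between Th17n and Th17p cells these were ATP5D (-0.42) and UQCR11 (0.57). Between iTreg and Th17n cells they were ATP5D (0.53), ATP5E (0.51), COX7A2L (0.62), NDUFA6 (0.70), NDUFV3 (0.47), SDHA (0.56), SDHC (0.46) and UQCRC2 (0.45). The effect of each was higher in iTreg cells on scaled counts. For NDUFV3 that was a smaller decrease, and NDUFA6, ATP5D and SDHC were called lower with DFMO in Th17n but not in iTreg cells. Between iTreg and Th17p cells they were SDHA (0.37) and COX6A2 (-5.97). Of these 12 results, 0 were kept under every alternative run; NDUFA6 in iTreg against Th17n cells was lost without animal 1 (0.55) or 2 (0.65), and SDHA there on log2(TPM + 1) (0.25) and without animal 1 or 2. Single outlying libraries were not tested for in groups of 3.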

How the results depend on the processing

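Of 190 called results for single subunit genes, 80 were kept under all 14 alternatives: 8 of 33 for DFMO in Th17p cells, 29 of 51 in Th17n cells, 31 of 54 in iTreg cells, 2 of 7, 9 of 23 (COX4I2 among them, which passed the count filter through 1 group) and 1 of 10 between lineages, and 0 of the differences of effects. Leaving out 1 animal gave 13 to 22 calls for DFMO in Th17p cells (33 with all), 4 to 5 for Th17n against Th17p (7), 14 to 15 for iTreg against Th17n (23) and 3 to 7 for iTreg against Th17p (10). For the differences of effects it gave 0 to 0 (2), 0 to 5 (8) and 0 to 4 (2). With the replicate block, which uses the pairing by animal, counts were 41, 55 and 58 for DFMO and 5, 18 and 12 for the differences of effects. On log2(TPM + 1), log2(TPM + 0.1) and log2(TPM + 1) without a low-value filter, Th17n against Th17p had 17, 16 and 14 calls, iTreg against Th17n had 35 on both of the filtered scales, iTreg minus Th17n had 21, 21 and 16, and iTreg minus Th17p 1 on each. Fitting only the groups compared gave 4 calls for iTreg against Th17p and 1 for iTreg minus Th17p. Without a low-count filter these counts were 6 and 1. For iTreg minus Th17p, no scaling gave 1, DESeq2 4, run 1 alone 1 and run 2 alone 1. Run 1 alone gave 1 for Th17n minus Th17p and 5 for iTreg minus Th17n. On summed CPM instead of TPM, the log2 ratio with DFMO moved for all genes in Th17n (0.172) and iTreg cells (0.393), for complex I in all lineages (0.114, 0.077 and 0.278), complex II in iTreg (0.489), complex III in Th17p (0.177) and Th17n (0.134), complex IV in Th17n (0.163) and iTreg (0.437) and complex V in iTreg cells (0.46). Reversed on the TPM scales were SDHB with DFMO in iTreg cells (-0.012), and the iTreg minus Th17n differences of COX4I1 (-0.185 on both filtered scales) and COX6A1 (-0.302, -0.303 and -0.302). The cause of these shifts was not tested. Of the 86 genes, 29 share exon bases with another gene (26 on the opposite strand), and ATP5L, COX7C, NDUFS5, ATP5B, COX5B and ATP5F1 had over 90% of run counts not whole, so their values are uncertain. With 3 animals a group, differences smaller than those called may have gone undetected.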
